A study of Homo sapiens with 6 samples.

Results

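The genes described here carry out homologous recombination and the Fanconi repair of DNA crosslinks, and they were followed on arrays of oral squamous cell carcinoma (OSCC) cells after knockdown of DLEU1, a long noncoding RNA. All probes named after one of these 36 genes in the scanner files were taken. Each of the 36 genes was on the array, with 56 probes of the 50599 measured, and 53 of these probes, with at least 1 for every gene, were bright enough to be tested among 19956. The list runs from the sensors of broken DNA (ATM, ATR, and the complex of MRE11A, RAD50, and NBN) to the BRCA proteins, the mediators of strand exchange, the Fanconi proteins, and the nucleases and helicases that finish repair.

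Total RNA came from HSC-3, KON, and Ca9-22, which are established OSCC lines. Each line was transiently transfected either with siDLEU1-2, a single small interfering RNA against DLEU1, or with a control siRNA (siCtrl), and was harvested at 72 h. For every line there was 1 array (Agilent, 1 color) of each siRNA, so that replication comes from the 3 lines alone, and the change seen in a single line carries no error between cultures. No DNA-damaging agent was given to any group, and the arrays measure RNA rather than repair.

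Homologous recombination mends a broken chromosome by copying the intact sister DNA, which exists only after replication. The complex of MRE11A, RAD50, and NBN finds the break and, with RBBP8, starts to trim it, EXO1 and DNA2 trim further, and BRCA1 with BARD1, PALB2, and BRCA2 prepares the trimmed end for strand exchange. In the Fanconi pathway, a core complex with the ubiquitin ligase FANCL and the conjugating enzyme UBE2T marks FANCD2 and FANCI at a crosslink. People born with Fanconi anemia, in which one of these genes is defective, have a high risk of squamous cell carcinoma of the mouth.

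Some probe sequences are shown because the reading of ATM and CHEK2 depends on which probe is used. They are the 60-base probes of the files, placed on hg19 by the files themselves. The ATM probes lie 136083 bases apart on the plus strand, at chr11:108099942-108100001 and chr11:108236085-108236144, both assigned to the transcript NM_000051, and no base of them is marked.
ATM A_33_P3589722: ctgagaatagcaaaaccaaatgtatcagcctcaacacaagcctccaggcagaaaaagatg
ATM A_23_P35916: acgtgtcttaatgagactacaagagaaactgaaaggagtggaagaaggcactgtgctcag
The CHEK2 probes overlap one another on the minus strand of chromosome 22. A_23_P109452 and A_21_P0011391 each span 4876 bases in the genome and therefore cross an intron, and A_21_P0011474 lies within 60 bases. The capital letter is the base at which a probe differs from A_23_P109452, by C39G over 49 overlapping bases and by C60G over 41. Positions count from 1 at the 5′ end of A_23_P109452.
CHEK2 A_23_P109452: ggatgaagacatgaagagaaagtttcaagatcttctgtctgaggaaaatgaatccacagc
CHEK2 A_21_P0011391: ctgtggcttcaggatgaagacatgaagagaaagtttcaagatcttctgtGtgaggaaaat
CHEK2 A_21_P0011474: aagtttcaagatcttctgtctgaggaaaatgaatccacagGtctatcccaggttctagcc
Close copies of the 3′ part of CHEK2 exist elsewhere in the human genome, and hybridization of their transcripts to these probes was not tested.

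DLEU1 was lower after siDLEU1-2 by 17.1-fold in HSC-3 cells, 12.4-fold in KON, and 10.8-fold in Ca9-22 cells (mean log2 fold change -3.72, adjusted p = 0.0227 from limma). The arrays were alike in brightness, with a 75th percentile of 200 to 257 signal units and 43.0% to 45.7% of probes well above background. The epithelial markers KRT5, KRT14, KRT6A, KRT17, KRT18, EPCAM, CDH1, and SFN were well above background on all 6 arrays and TP63 on 5. Among markers of other cells, PTPRC and COL3A1 were so on 0 arrays, CD3E, PECAM1, and DCN on 1, VWF on 5, and CD14, COL1A1, and ACTA2 on 6. Markers moved in both directions, with mean log2 fold changes of 1.45 for COL1A1, 0.93 for VWF, and -0.65 for ACTA2, and from 2.92 for CDH1 to -2.46 for TP63 among the epithelial ones. Their part in the results for the repair genes was not tested. Because whole cultures were measured, fewer cells in one phase of the cycle and less RNA per cell cannot be told apart.

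NBN rose and 1 of the ATM probes fell after siDLEU1-2, while no other repair gene on the list passed the test. In a fit of limma to all tested probes with the cell line as a block, 1 of the 53 probes (1.89%) was higher at an adjusted p below 0.05, against 3.98% of all tested probes, and 1 (1.89%) was lower, against 4.52%. By measured values the same 2 probes were over 2-fold higher and over 2-fold lower in every line, where the background was 2.08% in each direction. For the ATM probe this rests in KON on a siDLEU1-2 value not well above background, which shows a fall of at least 1.94-fold only, and once dim values were set to the floor of detection, 0 probes were over 2-fold lower in every line. In mean log2 fold change, 44 of the 53 probes (83.0%) were within 0.5 of 0, against 69.4% of all tested probes, and 47 (88.7%, from 33 genes) were within 2-fold in each of the lines, against 73.8%. An unadjusted p below 0.05 was reached by 12 probes (22.6%), against 29.5% of all tested probes. Of the 12, 4 were higher and 8 lower, where the background was 14.6% and 14.9%.

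**Figure D1:**
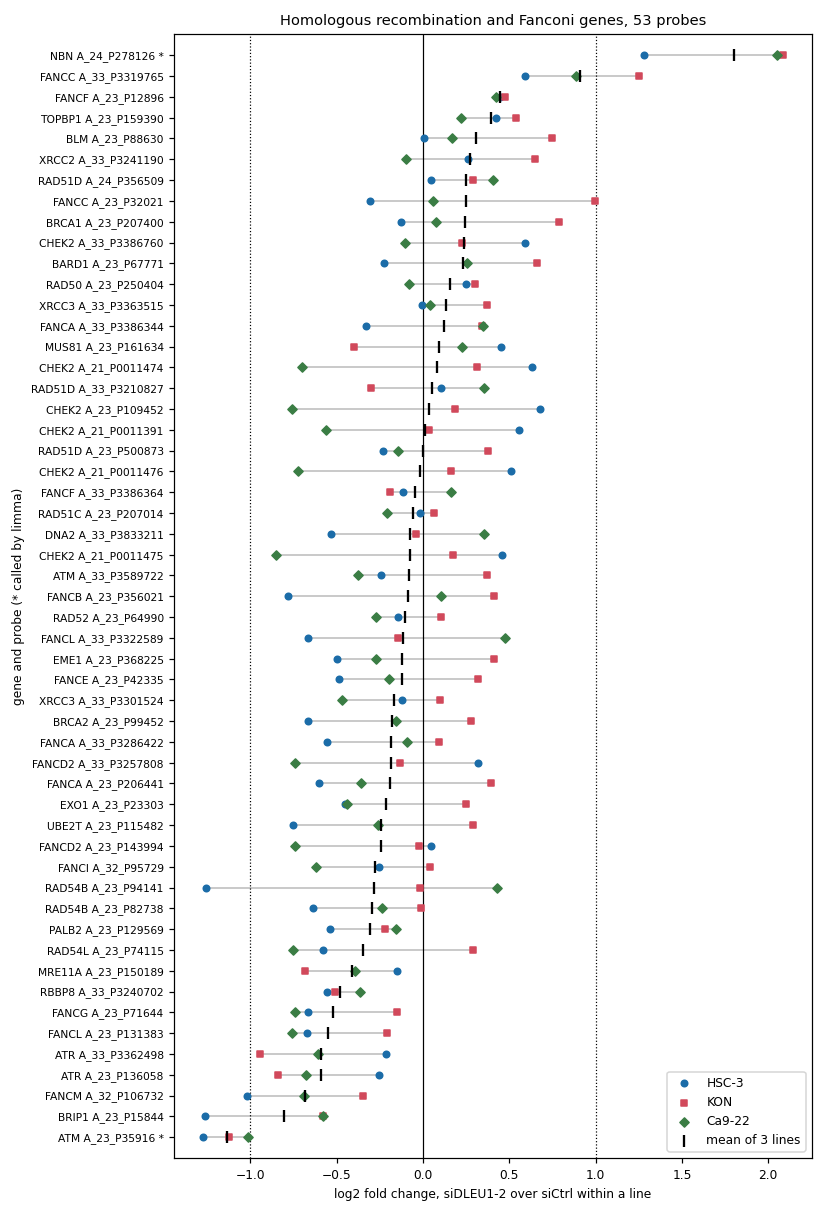
Log2 fold change after siDLEU1-2 over siCtrl for the 53 tested probes, with 1 colored point per cell line, a tick at the mean of the 3 lines, a gray bar over their range, and dotted lines at 2-fold. NBN stands alone at the top (mean 1.80), ATM A_23_P35916 is at the bottom (mean -1.14), and the KON points lie to the right of the other lines for many of the remaining probes.

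Within single lines, 1 probe was over 2-fold higher and 4 were over 2-fold lower in HSC-3 (background 7.53% and 6.68%). In KON, 2 were higher and 1 was lower by that measure (background 7.30% and 7.29%), and in Ca9-22 1 was higher and 1 lower (background 6.56% and 6.46%). Besides NBN and ATM, these were BRIP1, FANCM, and RAD54B, which were lower in HSC-3, and FANCC, which was higher in KON. As shares of the 53 probes, all these counts were between 1.89% and 7.55%.

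Among the genes of end resection, NBN, the subunit that brings ATM to a break, was the one that changed. Its signal, given relative to the 75th percentile of the array, was 0.764 in HSC-3 cells, 0.704 in KON, and 0.813 in Ca9-22 cells after siCtrl. After siDLEU1-2 it was 1.85, 2.99, and 3.36 in the same lines. Every siDLEU1-2 array was above every siCtrl array, and the siCtrl arrays were close to one another. The rise was 2.43-fold, 4.24-fold, and 4.13-fold, and the log2 fold change averaged 1.80 ± 0.45 (SD, n = 3 lines; adjusted p = 0.0266 from limma). NBN is represented by 1 probe, at chr8:90946384-90946443, so that no second probe bears on it. With normexp background correction, which shrinks the changes of dim probes, the mean was 1.47 and the gene was still called, although it was no longer over 2-fold in every line. When any 1 line was left out the mean lay between 1.66 and 2.07, and the adjusted p was 0.0736 to 0.109.

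None of the partners of NBN passed the test. MRE11A, the nuclease of the complex, had log2 fold changes of -0.15 in HSC-3 cells, -0.68 in KON, and -0.39 in Ca9-22 cells (mean -0.41, adjusted p = 0.187 from limma). RAD50, the structural ATPase, had 0.25, 0.30, and -0.08 in those lines (mean 0.16, adjusted p = 0.542). RBBP8, also called CtIP, which activates the nuclease, was lower on each siDLEU1-2 array than on any siCtrl array, at a relative signal of 4.43 to 5.22 against 6.50 to 7.44. Its change was small and alike in the lines (mean -0.48 ± 0.10, SD, n = 3 lines) and did not pass the test (adjusted p = 0.0996 from limma). EXO1 and DNA2, the long-range nucleases, had means of -0.21 and -0.07 with mixed directions.

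**Figure D2:**
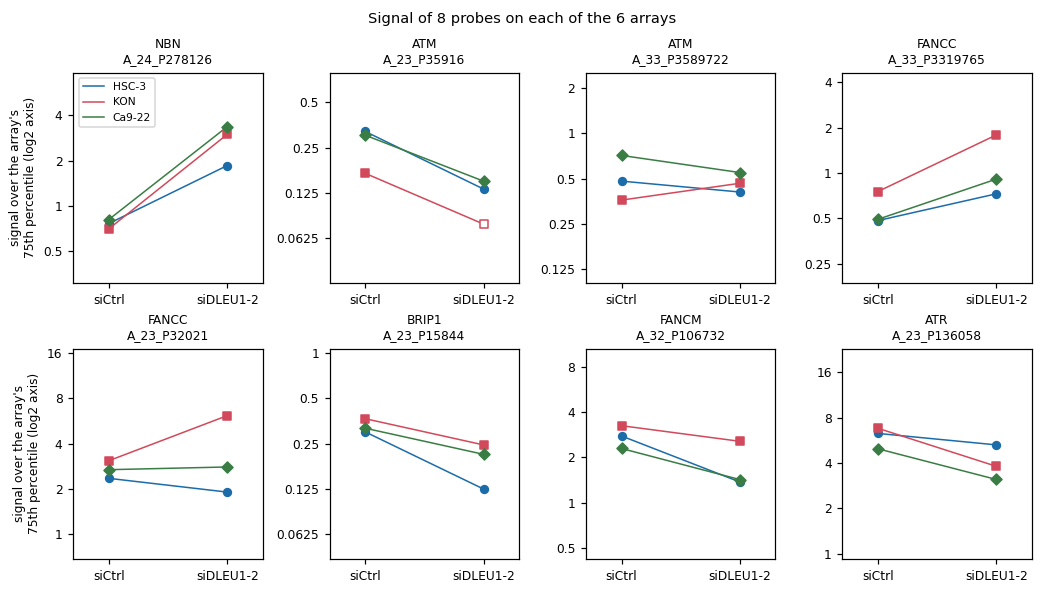
Signal relative to the 75th percentile of the array, on a log2 axis, for 8 probes after siCtrl and siDLEU1-2, with 1 line per cell line and an open symbol where the probe was not well above background. NBN rises in each of the lines, ATM falls in each of them at A_23_P35916 and goes in different directions between lines at A_33_P3589722, and the FANCC probes separate mainly in HSC-3 and Ca9-22.

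Among the damage kinases, the ATM result differed between its probes. ATM is the kinase that answers to double-strand breaks. At A_23_P35916, the relative signal was 0.321 in HSC-3 cells, 0.169 in KON, and 0.303 in Ca9-22 cells after siCtrl, and 0.133, 0.0778, and 0.150 after siDLEU1-2. Every siDLEU1-2 array was below every siCtrl array. The fall was 2.41-fold, 2.17-fold, and 2.02-fold, and the log2 fold change averaged -1.14 ± 0.13 (SD, n = 3 lines; adjusted p = 0.0274 from limma). This probe has 10 spots per array, and their spread gave the change within a line a standard error of 0.046 in HSC-3 cells, 0.13 in KON, and 0.095 in Ca9-22 cells, which covers error within an array only. In KON the siDLEU1-2 signal was not well above background, so that the fall there is at least 1.94-fold. With normexp background correction the mean was -0.41 and was not called (adjusted p = 0.0707 from limma). When any 1 line was left out the mean lay between -1.20 and -1.07, and the adjusted p was 0.0785 to 0.108.

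At A_33_P3589722, nearer to the 5′ end of ATM, the relative signal was 0.481 in HSC-3 cells, 0.360 in KON, and 0.712 in Ca9-22 cells after siCtrl. After siDLEU1-2 it was 0.407, 0.465, and 0.548. The groups overlapped and the lines went in different directions, with log2 fold changes of -0.24, 0.37, and -0.38 (mean -0.08, adjusted p = 0.822 from limma). The third ATM probe was not well above background on any array and gave no fold. The fall of ATM thus rests on 1 dim probe of the pair that could be tested.

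ATR, the kinase that answers to single-stranded DNA at stalled forks, was lower at both of its probes in every line, and neither passed the test. The log2 fold changes were -0.25 in HSC-3 cells, -0.84 in KON, and -0.68 in Ca9-22 cells at one probe (mean -0.59 ± 0.30, SD, n = 3 lines; adjusted p = 0.106 from limma). At the other they were -0.21, -0.94, and -0.61 (mean -0.59 ± 0.37, adjusted p = 0.126). The 2 probes thus gave the same mean and the same order of lines. TOPBP1, which activates ATR, was higher in each line (mean 0.40 ± 0.16, adjusted p = 0.156 from limma).

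CHEK2, the kinase that ATM switches on, was measured by 6 probes, and none was called. In HSC-3 all of them were higher after siDLEU1-2, by 0.46 to 0.68 on the log2 scale. In KON they were higher by 0.04 to 0.31, and in Ca9-22 they were lower, between -0.85 and -0.10. At A_23_P109452 the relative signal went from 1.70 to 2.72 in HSC-3, from 1.405 to 1.60 in KON, and from 1.29 to 0.764 in Ca9-22. The HSC-3 and Ca9-22 arrays were thus closer together after siCtrl than after siDLEU1-2. The means of the 6 probes, between -0.07 and 0.24, hide these opposite changes, and adjusted p was 0.445 to 0.985 from limma. Because 3 of the probes share most of their bases, as printed above, they do not count as separate measurements, and A_33_P3386760 had the smallest change in Ca9-22.

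**Figure D3:**
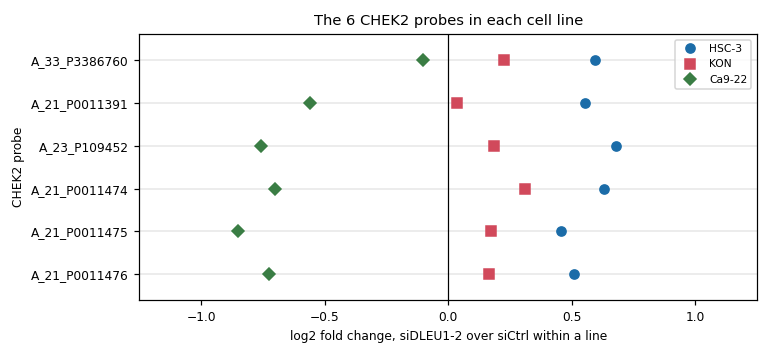
Log2 fold change after siDLEU1-2 over siCtrl at each of the 6 CHEK2 probes, with 1 point per cell line. The HSC-3 points lie between 0.46 and 0.68, the KON points between 0.04 and 0.31, and the Ca9-22 points between -0.85 and -0.10.

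Of the Fanconi core complex and its conjugating enzyme, 9 genes with 14 tested probes, 0 were called by limma, and 5 probes had an unadjusted p below 0.05, against the 29.5% of all tested probes. Over the 14 probes, the medians were -0.58 for HSC-3, 0.31 for KON, and -0.02 for Ca9-22. FANCC, a core subunit, came closest, at the probe assigned to the transcript NM_001243744. Its relative signal was 0.483 in HSC-3 cells, 0.753 in KON, and 0.492 in Ca9-22 cells after siCtrl, and 0.727, 1.79, and 0.910 after siDLEU1-2. The groups overlapped because KON started higher, while each line rose. The mean log2 fold change was 0.91 ± 0.33 (SD, n = 3 lines; adjusted p = 0.0526 from limma), and the probe was called with normexp background correction (adjusted p = 0.0463). The other FANCC probe, assigned to NM_000136, had log2 fold changes of -0.30, 0.99, and 0.06 (mean 0.25, adjusted p = 0.604), so that the probes were closest in KON.

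FANCM, the translocase that anchors the core complex at DNA, was lower in each line, with log2 fold changes of -1.02 in HSC-3 cells, -0.35 in KON, and -0.69 in Ca9-22 cells (mean -0.68 ± 0.34, SD, n = 3 lines; adjusted p = 0.0879 from limma). FANCL, the ubiquitin ligase, had -0.67, -0.21, and -0.76 at one probe (adjusted p = 0.119) and -0.67, -0.14, and 0.47 at the other (adjusted p = 0.807). Its probes therefore differed in Ca9-22. FANCG, a scaffold subunit, was lower in each line (mean -0.52 ± 0.32, adjusted p = 0.140 from limma). FANCF, an adaptor subunit, was higher by nearly the same amount in each line at one probe, with 0.45, 0.48, and 0.43 (adjusted p = 0.104 from limma), and had a mean of -0.05 at the other. UBE2T, the conjugating enzyme, had -0.75 in HSC-3 cells, 0.29 in KON, and -0.26 in Ca9-22 cells. The means of FANCA, FANCB, and FANCE lay between -0.19 and 0.12, with mixed directions at every probe of these genes.

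FANCD2 and FANCI, the pair that receives the ubiquitin mark, had their lowest values in Ca9-22. The tested FANCD2 probes had log2 fold changes of 0.05 and 0.32 in HSC-3 cells, -0.03 and -0.13 in KON, and -0.74 at both in Ca9-22. FANCI had -0.25, 0.04, and -0.62 in these lines. None of the 3 probes passed the test by limma (0 at an unadjusted p below 0.05, against 29.5% of all tested probes). The other FANCD2 probe stayed at background on every array.

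Of the BRCA proteins and their partners, 5 genes with 1 probe each, 0 were called by limma. An unadjusted p below 0.05 was reached by 1, against 29.5% of all tested probes. Different directions between lines were seen for 3 of the 5, where 26.7% of all tested probes were lower and 26.9% higher in every line. BRCA1, the ubiquitin ligase that steers repair toward recombination, had log2 fold changes of -0.13 in HSC-3 cells, 0.79 in KON, and 0.07 in Ca9-22 cells, and BARD1, its binding partner, had -0.23, 0.66, and 0.26. BRCA1 is among the probes with 10 spots, and its spots gave the KON value a standard error of 0.035. This covers error within an array only, not error between cultures. BRCA2, which prepares single strands for exchange, had -0.67, 0.28, and -0.15. PALB2, which joins BRCA1 to BRCA2, was lower in each line by a smaller amount (mean -0.30 ± 0.20, SD, n = 3 lines; adjusted p = 0.262 from limma).

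BRIP1, also called FANCJ, the helicase that binds BRCA1, had the lowest mean on the list after ATM. Its relative signal was 0.300 in HSC-3 cells, 0.366 in KON, and 0.317 in Ca9-22 cells after siCtrl, and 0.125, 0.245, and 0.212 after siDLEU1-2. The groups did not overlap, and HSC-3 had the largest fall, 2.40-fold. The mean log2 fold change was -0.81 ± 0.40 (SD, n = 3 lines) and did not pass the test (adjusted p = 0.0766 from limma). With normexp background correction it was -0.295 (adjusted p = 0.143).

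The mediators of strand exchange gave no call by limma among 7 genes and 11 tested probes. An unadjusted p below 0.05 was reached by 0 of them, against 29.5% of all tested probes. RAD51C and RAD51D, which act in one complex, had means between -0.06 and 0.25. XRCC2, of the same complex, had a mean of 0.27, and XRCC3, the partner of RAD51C, had means of -0.16 and 0.13 at its probes. RAD54L, the motor protein that helps the broken end invade the sister DNA, had -0.58 in HSC-3 cells, 0.29 in KON, and -0.75 in Ca9-22 cells (mean -0.35, adjusted p = 0.411 from limma). Its relative RAD54B had means of -0.29 and -0.28, and at one probe the HSC-3 signal fell to background, so that the 2-fold count above rests there on a bound of at least 1.95-fold. RAD52, which anneals single strands, had a mean of -0.10. Of the genes that process joined chromosomes, the helicase BLM had 0.01 in HSC-3 cells, 0.75 in KON, and 0.17 in Ca9-22 cells. The nuclease subunits EME1 and MUS81 had means of -0.12 and 0.09 with mixed directions.

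Over the list, the median log2 fold change was -0.09, against 0.01 over all tested probes. It was -0.23 in HSC-3 cells, 0.17 in KON, and -0.21 in Ca9-22 cells, where the medians of all tested probes were 0.00, 0.02, and -0.01. Probes lower in every line numbered 11 (20.8%, from 10 genes, against 26.7% of all tested probes), and probes higher in every line numbered 6 (11.3%, against 26.9%). The remaining 36 probes (67.9%, from 26 genes) went in different directions between lines. Most often, KON was the exception, and 14 probes (26.4%, from 13 genes) were higher in KON and lower in both HSC-3 and Ca9-22, a pattern of 9.26% of all tested probes. The genes with such a probe were ATM, BRCA2, EME1, EXO1, FANCA, FANCE, FANCI, RAD51C, RAD51D, RAD52, RAD54L, UBE2T, and XRCC3. Other tested probes of ATM, FANCA, RAD51D, and XRCC3 did not have this pattern, and ATM A_23_P35916 was lower in every line. In all, 34 of the probes were higher in KON, compared with 18 in HSC-3 and 18 in Ca9-22. As shares these were 64.2%, 34.0%, and 34.0%, where 51.4%, 49.9%, and 49.4% of all tested probes were higher. With 1 array per line and siRNA, the difference between lines was not tested. Across the 53 probes, the log2 fold changes had a Pearson r of 0.47 between HSC-3 and KON, 0.30 between HSC-3 and Ca9-22, and 0.63 between KON and Ca9-22 (Spearman rho 0.31, 0.13, and 0.43). The points of these correlations include several probes of 1 gene.

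The lines stood in a like order in gene lists of the cell cycle and in most lists of other repair genes. With 1 probe per gene, its brightest, the 36 repair genes had medians of -0.25 in HSC-3 cells, 0.27 in KON, and -0.22 in Ca9-22 cells. The 22 genes of mitosis had medians of -0.59, 0.39, and -0.36, and the 40 genes of replication and E2F targets had -0.17, 0.51, and 0.02. Medians were smaller in the same order for other homologous recombination and Fanconi genes (-0.03, 0.17, and 0.003) and damage signaling around BRCA1 (-0.01, 0.20, and 0.03). End joining had 0.003, 0.12, and 0.007. Mismatch and excision repair, with 0.08, 0.08, and -0.09, had its lowest median in Ca9-22. Many repair genes are made in S and G2 phase, and the part of the cell cycle in the differences between lines was not tested. In the lists of replication and mitosis, MCM7 and CDC45, of the replicative helicase (means -1.10 and -1.06), and CENPE, a mitotic motor (-1.14), were called lower by limma. None in these 2 lists was called higher. At an unadjusted p below 0.05, 5 replication genes were higher and 2 lower, and 1 mitosis gene was higher and 4 lower, where the background over all genes was 14.6% higher and 14.9% lower.

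**Figure D4:**
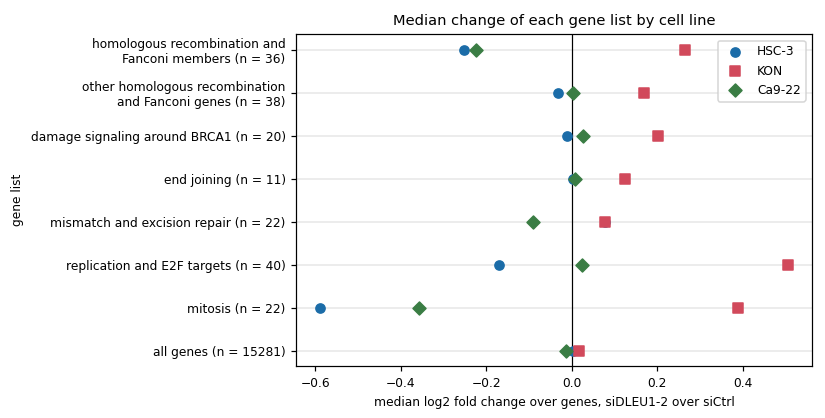
Median log2 fold change after siDLEU1-2 over siCtrl in each cell line for the repair genes, 6 other gene lists, and all 15281 gene names tested, with 1 probe per gene. The KON points lie furthest to the right in every list, from 0.08 for mismatch and excision repair to 0.51 for replication, and those of all genes lie near 0. For mismatch and excision repair, the HSC-3 point (also 0.08) lies under the KON point.

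Other repair genes showed which neighbors of the list changed. With 1 probe per gene, limma called 4.06% of all genes higher and 4.54% lower. Among the other homologous recombination and Fanconi genes, ZSWIM7, which acts in homologous recombination, rose, with log2 fold changes of 1.22, 0.69, and 1.36 in HSC-3, KON, and Ca9-22 in turn (mean 1.09 ± 0.35, SD, n = 3 lines; adjusted p = 0.0410 from limma). ERCC4, also called XPF and FANCQ, the nuclease that cuts at crosslinks, fell over 2-fold in every line, with log2 fold changes of -1.10, -1.46, and -1.88 (mean -1.48 ± 0.39, adjusted p = 0.0303).

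Of 20 genes of damage signaling around BRCA1, 1 was lower and 0 were higher. It was ATRIP, the obligate partner of ATR, with -0.83 in HSC-3 cells, -0.91 in KON, and -0.86 in Ca9-22 cells (mean -0.87 ± 0.04, SD, n = 3 lines; adjusted p = 0.0338 from limma). ATRIP and the ATR probes were thus lower in each line, while only ATRIP passed the test. Of 11 end joining genes, XRCC4, the scaffold of ligase IV, was higher (mean 0.75 ± 0.08, adjusted p = 0.0454) and 0 were lower. Of 22 mismatch and excision repair genes, limma called 0 in either direction, with 3 higher and 2 lower at an unadjusted p below 0.05. The median log2 fold change was 0.05, 0.11, -0.06, and 0.01 in these 4 lists in turn, compared with -0.11 for the 36 genes and 0.01 for all genes.

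Some of these genes also differed in level between the lines, taken as means over both siRNAs. By the F-test of the cell line terms in the same limma fit, which asks whether any of the 3 lines differs, 23 of the 53 probes (43.4%, from 19 genes) differed between lines at an adjusted p below 0.05, against 53.8% of all tested probes. A line is represented here by 2 arrays that differ in siRNA. Because siRNA is also a term of the fit, its mean effect is removed. The error behind these p-values therefore comes from how far the change between siRNAs differed among the lines. HSC-3 was the lowest line for 29 of the 53 probes (54.7%), compared with 30.4% of all tested probes, and KON was the highest for 27 (50.9%), compared with 33.1%. Among the 23 probes that differed, HSC-3 was lowest for 16 (69.6%) and KON highest for 15 (65.2%), compared with 30.6% and 34.3% of all probes that differed. The count of 23 fell whichever line was left out, to 10 without HSC-3, to 12 without KON, and to 16 without the remaining line. Each of these fits has fewer arrays, and its share over all tested probes is not given. The falls were therefore not assigned to any line.

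FANCA had the widest gap. At A_33_P3286422 the relative signal was 0.188 and 0.128 in HSC-3, 0.331 and 0.311 in Ca9-22, and 2.06 and 2.20 in KON (siCtrl and siDLEU1-2 in turn). KON was thus 13.7-fold above HSC-3 (F-test over the 3 lines, adjusted p = 0.00497 from limma). No pair of lines was tested on its own, and every p for the lines is that of this F-test. The gap was 8.86-fold at A_33_P3386344 (adjusted p = 0.00655) and 3.85-fold at A_23_P206441 (adjusted p = 0.0153), so that its size depended on the probe and its direction did not.

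KON was also above HSC-3 by 5.66-fold for XRCC2, 4.05-fold for FANCD2 A_23_P143994, 3.82-fold for EXO1, 3.55-fold for DNA2, 3.38-fold for BLM, and 2.78-fold for PALB2 (adjusted p of the F-test from limma between 0.00735 and 0.0135). At the other tested FANCD2 probe, A_33_P3257808, the gap was 3.46-fold (adjusted p = 0.0184). For PALB2, KON and Ca9-22 were close, at mean relative signals of 1.32 and 1.37, and HSC-3 was apart at 0.476. BRCA2 and RAD54L were 2.59-fold and 2.72-fold higher in KON than in HSC-3 (adjusted p of the F-test 0.0300 and 0.0351). FANCE went the other way and was 2.35-fold higher in HSC-3 than in KON (F-test, adjusted p = 0.0276), and RAD52 was highest in Ca9-22 and lowest in KON (F-test, adjusted p = 0.0119). NBN, ATR, BRCA1, BARD1, MRE11A, RAD50, RBBP8, BRIP1, and FANCM did not pass the test between lines.

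**Figure D5:**
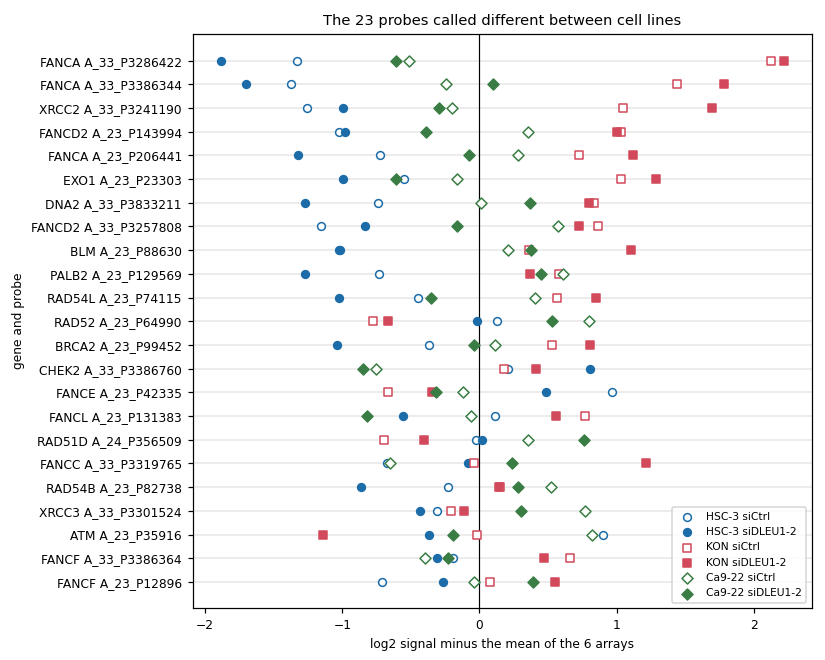
Log2 signal of the 23 probes that differed between cell lines, minus the mean of the 6 arrays, with open symbols for siCtrl and filled symbols for siDLEU1-2, sorted by the gap between the highest and lowest line. For FANCA A_33_P3286422, at the top, both KON arrays are above 2 and both HSC-3 arrays are below -1.

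The sequence of the siRNA was compared with the probes of the list, because small interfering RNAs can also repress transcripts that match their seed. The antisense strand of siDLEU1-2 is printed with its seed, bases 2 to 8, in capitals.
siDLEU1-2 antisense strand: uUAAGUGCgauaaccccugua
The letters GCACTTA, complementary to the seed, were in 0 of the 56 probes and in 57 of the 19956 tested probes (0.286%). A probe covers 60 bases of a transcript, so that the rest of each transcript was not searched.

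Promoters of 32 of the 36 genes, taken from RefSeq on GRCh38.p14 as 250 bases upstream of the gene start, were searched on both strands for cell cycle motifs. DNA2, FANCI, NBN, and RAD54B were not searched. An E2F motif (TTTCCCGC, TTTCGCGC, TTTGCCGC, or TTTGGCGC) was found in 2 promoters (6.25%), those of FANCA and FANCC, compared with 3.4% of all 27305 gene promoters. The CHR element TTTGAA was found in 4 (12.5%, against 16.1%), in ATM, BRIP1, FANCC, and UBE2T. A CCAAT box was found in 14 (43.8%, against 37.0%). None of these motifs contains another, and a match describes the letters alone.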

How the data were processed

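RNA from the 6 cultures was measured on 1-color arrays (Cy3, 100 ng of total RNA per labeling). The deposited files are scanner tables written by Feature Extraction 10.7.3.1. Their processed signal, as deposited, is an intensity on a linear scale after background subtraction, with no normalization between arrays. The series table that they also deposited holds the same intensity, with a largest difference of 0.497%. Probe coordinates are on hg19, and whether a probe lies in an exon or UTR was not analysed here.

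Here, control and outlier spots were left out, log2 values of the spots of a probe were averaged, and the 75th percentile of each array was subtracted. A probe was tested if, in every line, at least 50% of its spots were well above background on 1 or both of the 2 arrays. Another 55 probes lacked a usable spot on an array and were left out. Saturated spots were absent. The model of limma 3.58.1 (R 4.3.3) had siRNA and cell line as terms, with Benjamini-Hochberg adjustment over all tested probes (threshold 0.05), and was tested on simulated data. Cell line served as the block since the arrays were paired by line, and deviations from the siRNA means correlated within the pairs at 0.83 in HSC-3 cells, 0.81 in KON, and 0.82 in Ca9-22 cells. A bound compares the brighter value with the higher of the dim value and the lowest signal well above background on its array. The number of arrays limits the precision. With 3 pairs, the smallest two-sided p of an exact permutation test is 0.25, and no such test was used.

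The members and the gene lists were chosen with earlier results of these data known. Every member probe called by limma or over 2-fold in all lines is given on each array, and up to 3 called genes per direction are named from each other list. A result for 1 gene of these lists is not reported here. The brightest probe stands for a gene in the lists. The alternatives comprised normexp (offset 50), quantile normalization, other centerings (the median, or the percentile over probes detected everywhere), 3 other filters, a floor for dim values, the series table, other fold thresholds, leaving out each line, the methods' t-test, and a fit with no block.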

Additional observations from a re-analysis of the deposited data

Results flagged for a closer look

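Among the 53 tested probes, 2 CHEK2 probes changed over 1.5-fold upward in HSC-3 and over 1.5-fold downward in Ca9-22. The share of all tested probes with such opposite changes is not given, so how common they are is unknown here. At A_23_P109452 the log2 fold change was 0.68 in HSC-3 cells, 0.18 in KON, and -0.76 in Ca9-22 cells, a range of 1.44. At A_21_P0011474 it was 0.63, 0.31, and -0.70, a range of 1.33. These probes overlap by 41 bases, with 1 difference. With a single array for each siRNA in a line, this difference was not tested.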

How the results depend on the processing

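The median log2 fold change of the list was below 0 under every alternative run, and lay between -0.21 (without KON) and -0.003 (without HSC-3) when a line was left out. No direction of a called probe reversed. The calls themselves depended on several choices. With 1 line left out, limma called 0 probes of the list higher and 0 lower. Without HSC-3, KON, and Ca9-22 in turn, 6, 8, and 4 probes of the list had an unadjusted p below 0.05. Of all 19956 tested probes, 4547, 4676, and 4395 did so. Limma also called 0 of the list in both directions with no filter on dim probes (12 at an unadjusted p below 0.05, against 6816 of all 50544). The same held with no block for the cell line (2, against 1357 of 19956). The methods' t-test called 0 after adjustment as well (2, against 1373 of 19956). Under no filter, no block, and the t-test, 0 probes of the whole array were called, and 0 without HSC-3 or without KON. Without Ca9-22, 127 probes of the whole array were called higher and 117 lower. For normexp background correction, the counts were 2 higher and 0 lower by limma, against 5.67% and 5.9% of all tested probes. Over 2-fold in all lines, they were 0 higher and 0 lower. With the filter of all 6 arrays, limma called 2 higher and 0 lower, against 5.48% and 5.94% of all tested probes. Under that filter, 0 probes were over 2-fold lower, and ATM A_23_P35916 was not tested. Raising dim values to the floor gave 2 called higher, against 4.68% of all tested probes, and 0 over 2-fold lower. The second probe called higher in these 3 settings was FANCC (adjusted p between 0.0378 and 0.0463 from limma). A 3-fold threshold left 0 probes in each direction, and a 1.5-fold threshold gave 2 higher. The count of probes that differed between lines was 11 with no filter and 10 to 16 with a line left out (10 without HSC-3, 12 without KON, 16 without Ca9-22). The cause of these changes was not tested. The other settings kept each of these counts within 1.5 times. Over all tested probes, median centering gave 639 higher and 1069 lower calls, against 795 and 902.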
